A study of Mus musculus with 33 samples.

Results

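The early growth response factors Egr1, Egr2, Egr3 and Egr4 and the orphan nuclear receptors Nr4a1, Nr4a2 and Nr4a3 were followed in the frontal cortex of mice that had slept, lost sleep or recovered from sleep loss. The members were chosen by name, as the 7 rows of the expression table that carry these symbols, out of 21565 genes, and all 7 were found. Polyadenylated RNA was sequenced from 33 adult male mice of C57BL/6J background. The 20 WT mice were in control sleep (CS, free to sleep, n = 6), kept awake for 6 hr (sleep deprivation, SD, n = 7) or, after a shorter deprivation, given 2 hr of recovery sleep (RS, n = 7). The other 13 mice carried Mef2c alleles with loxP sites around an exon of the DNA-binding region. Of these, Mef2c f/f mice had no Cre (CS, n = 4, and SD, n = 3), and Mef2c-cKO mice also carried Camk2a-Cre (CS, n = 3, and SD, n = 3), which drives deletion in excitatory forebrain neurons. The study's methods state that some offspring of this cross also carried a recombined allele in the tail. They describe 2 Mef2c-cKO CS samples as having germline recombination, so deletion was not confined to Cre-expressing neurons in all mice. For the Mef2c-cKO SD mice this is not stated, and deletion in other cells is possible there too. Each library is labelled as a sample of its own, and p-values measure the spread between these libraries.

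Immediate early genes are transcribed within minutes of neuronal activation, without the need for new protein, and many encode transcription factors that pass a transient signal on to later genes. The Egr proteins are zinc finger factors that bind GC-rich sites, and in the cortex Egr1 and Egr3 are widely used as markers of synaptic activity and are tied to plasticity and memory. The Nr4a proteins are nuclear receptors that act without a classical ligand, bind the NBRE sequence as monomers, and are induced through calcium, cAMP and CREB. SRF acting at CArG boxes and CREB acting at cAMP response elements (CRE) are the best known routes to both families.

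The upstream sequences of 5 of the 7 members were in the RefSeq promoter table used here (GRCm38.p6), and they are shown because they carry the CRE and CArG letters through which these genes are commonly described as being induced. For each gene the 250 bases before the start site were searched on both strands, and for Egr2, which has 5 windows, the one nearest the start of a principal (APPRIS) GENCODE transcript was taken. Capitals mark CRE half-sites (TGACG, or CGTCA on the other strand), CArG boxes and TATA boxes (TATAAA or TATATA). All are written 5′ to 3′ on the strand of the gene. The Egr2 window is chr10:67537619-67537868 (plus strand), the Egr4 window chr6:85513590-85513839 (minus strand), the Nr4a1 window chr15:101266596-101266845 (plus strand), the Nr4a2 window chr2:57124004-57124253 (minus strand), and of the Nr4a3 window the 98 bases chr4:48045055-48045152 (plus strand) that precede the first annotated exon are given. The Egr2 and Nr4a1 windows also lie in introns of longer annotated transcripts, those of Egr4 and Nr4a2 lie directly before the gene, and the rest of the Nr4a3 window, with its other half-site, lies inside the annotated gene.
Egr2: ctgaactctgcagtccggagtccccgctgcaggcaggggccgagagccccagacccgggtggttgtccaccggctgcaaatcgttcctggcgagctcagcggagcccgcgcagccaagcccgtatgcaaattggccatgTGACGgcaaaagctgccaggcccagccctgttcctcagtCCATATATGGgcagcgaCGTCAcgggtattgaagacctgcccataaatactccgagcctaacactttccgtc
Egr4: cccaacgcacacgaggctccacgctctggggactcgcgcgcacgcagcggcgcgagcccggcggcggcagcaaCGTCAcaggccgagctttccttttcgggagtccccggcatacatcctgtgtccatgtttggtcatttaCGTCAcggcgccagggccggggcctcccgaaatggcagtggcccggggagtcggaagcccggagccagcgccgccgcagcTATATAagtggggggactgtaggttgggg
Nr4a1: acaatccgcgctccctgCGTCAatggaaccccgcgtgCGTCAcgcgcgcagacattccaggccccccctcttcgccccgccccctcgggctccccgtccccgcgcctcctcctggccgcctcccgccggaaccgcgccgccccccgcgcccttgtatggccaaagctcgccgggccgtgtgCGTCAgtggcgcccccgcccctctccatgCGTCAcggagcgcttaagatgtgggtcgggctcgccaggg
Nr4a2: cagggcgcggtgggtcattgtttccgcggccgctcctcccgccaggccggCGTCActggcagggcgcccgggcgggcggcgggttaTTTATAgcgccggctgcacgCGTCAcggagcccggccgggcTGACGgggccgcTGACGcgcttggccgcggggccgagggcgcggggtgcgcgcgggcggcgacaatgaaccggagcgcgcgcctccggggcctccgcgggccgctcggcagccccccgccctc
Nr4a3: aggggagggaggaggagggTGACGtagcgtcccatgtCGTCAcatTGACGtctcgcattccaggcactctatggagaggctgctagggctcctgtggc

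All 5 windows held CRE half-sites. Each of the 3 Nr4a windows had 4 of them, of which 3 fall in the Nr4a3 bases shown, and Egr2 and Egr4 had 2 each. Of 32544 RefSeq windows of the same length, 17.8% had at least 1 half-site, 3.92% at least 2 and 0.138% at least 4. The full CRE (TGACGTCA, which contains the half-site on both strands) was in none of the 5 windows and in 1.55% of all windows. The Egr2 window was the one with a CArG box, 72 to 63 bases before the start, against 1.48% of all windows. An EGR site (GCGGGGGCG or GCGTGGGCG) was found in the Nr4a1 window and in 3.09% of all windows. A MEF2 site, by its consensus, was found in the Nr4a2 window, where it overlaps the TATA letters 164 to 159 bases before the start. MEF2 sites were in 2.89% of all windows and TATA letters in 15.3%. Egr4 had TATA letters 29 to 24 bases before its start. The NBRE (AAAGGTCA), the site of the Nr4a proteins themselves, was in none of the 5 windows and in 1.35% of all. These are matches of letters, and no binding was measured here.

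**Figure D1:**
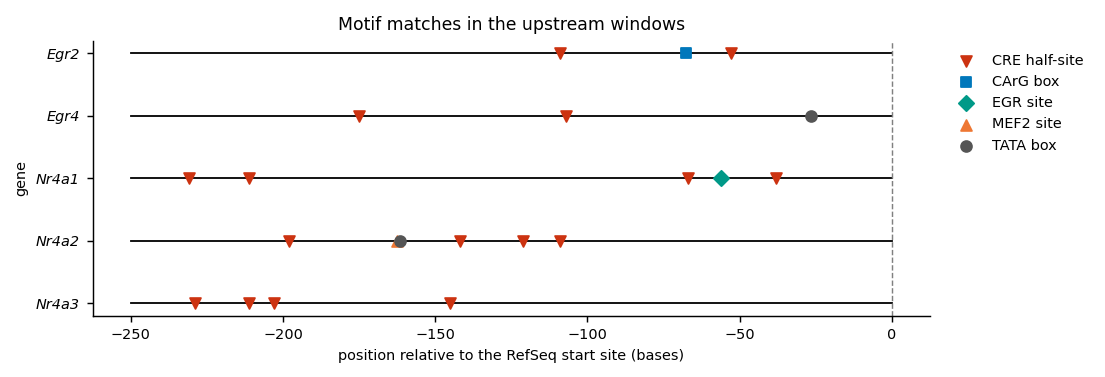
Positions of motif matches in the 250 bases before the RefSeq start site of 5 members, in bases on the x axis (0 is the start site), with 1 line per gene and 1 symbol per kind of motif. The 3 Nr4a windows have 4 CRE half-sites each, Egr2 and Egr4 have 2, and the CArG box is in the Egr2 window. In the Nr4a2 window the TATA symbol covers that of the MEF2 site.

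Sequencing depth was 18935045 to 249046089 reads per library with group medians of 87721357.5 to 127814796 in WT and 29639972 to 47999305 in the other genotypes. Values are reads per 1000000 counted reads (CPM) divided by a scaling factor per library, called rescaled CPM below. WT libraries listed 925580 to 985958 CPM in all and the others 1000000, so the 2 sets of libraries differ in how much of each library the table lists, and WT levels can be set beside those of Mef2c f/f and Mef2c-cKO only with that difference in mind. All listed markers of excitatory neurons (8 genes), of inhibitory neurons (6) and of astrocytes, oligodendrocytes, microglia and endothelium (5 each) reached a CPM of 1 in every library. The Mef2c row does not show the knockout: rescaled CPM were 1079 to 1205 in Mef2c f/f CS, 955 to 1724 in Mef2c-cKO CS, 1133 to 1404 in Mef2c f/f SD and 1114 to 1498 in Mef2c-cKO SD. The row counts the whole gene, most of which is outside the floxed exon, and deletion could not be checked here. A few libraries held more RNA of other tissue: choroid plexus markers (4 genes) summed to 310 rescaled CPM in Mef2c-cKO CS replicate 5, to 184 in WT CS replicate 1 and to 61.3 in WT CS replicate 3, against at most 22.7 in every other library, and astrocyte markers (5 genes) summed to 2337 in Mef2c-cKO CS replicate 8 against at most 1041 elsewhere.

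Levels between genes were compared as rescaled CPM per kilobase of the longest transcript. In WT CS, Egr1 (13.5 ± 3.01, SD, n = 6) and Egr3 (13.4 ± 1.66) were the most abundant members, followed by Nr4a1 (9.64 ± 3.36) and Nr4a2 (9.05 ± 3.10). Nr4a3 (2.32 ± 0.510), Egr4 (1.14 ± 1.08) and Egr2 (0.776 ± 0.416) were lower. In Mef2c f/f CS (n = 4), Egr1 was again highest at 11.4 ± 2.56 per kilobase, Nr4a1 was at 10.3 ± 4.03, and Egr3 had only 2.26 ± 0.571. In the GENCODE M21 annotation of GRCm38, Nr4a2 lies at chr2:57106830-57124003, Nr4a3 at chr4:48045153-48086447, Egr4 at chr6:85511121-85513589, Egr2 at chr10:67535475-67542188, Egr3 at chr14:70077203-70082614, Nr4a1 at chr15:101254269-101274795 and Egr1 at chr18:34859823-34864984. The depth behind the low members was modest: Egr2 rested on 46 to 456 reads per WT CS library but on only 4 to 45 reads in Mef2c f/f CS, and Egr4 on 22 to 503 and 34 to 75.

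**Figure D2:**
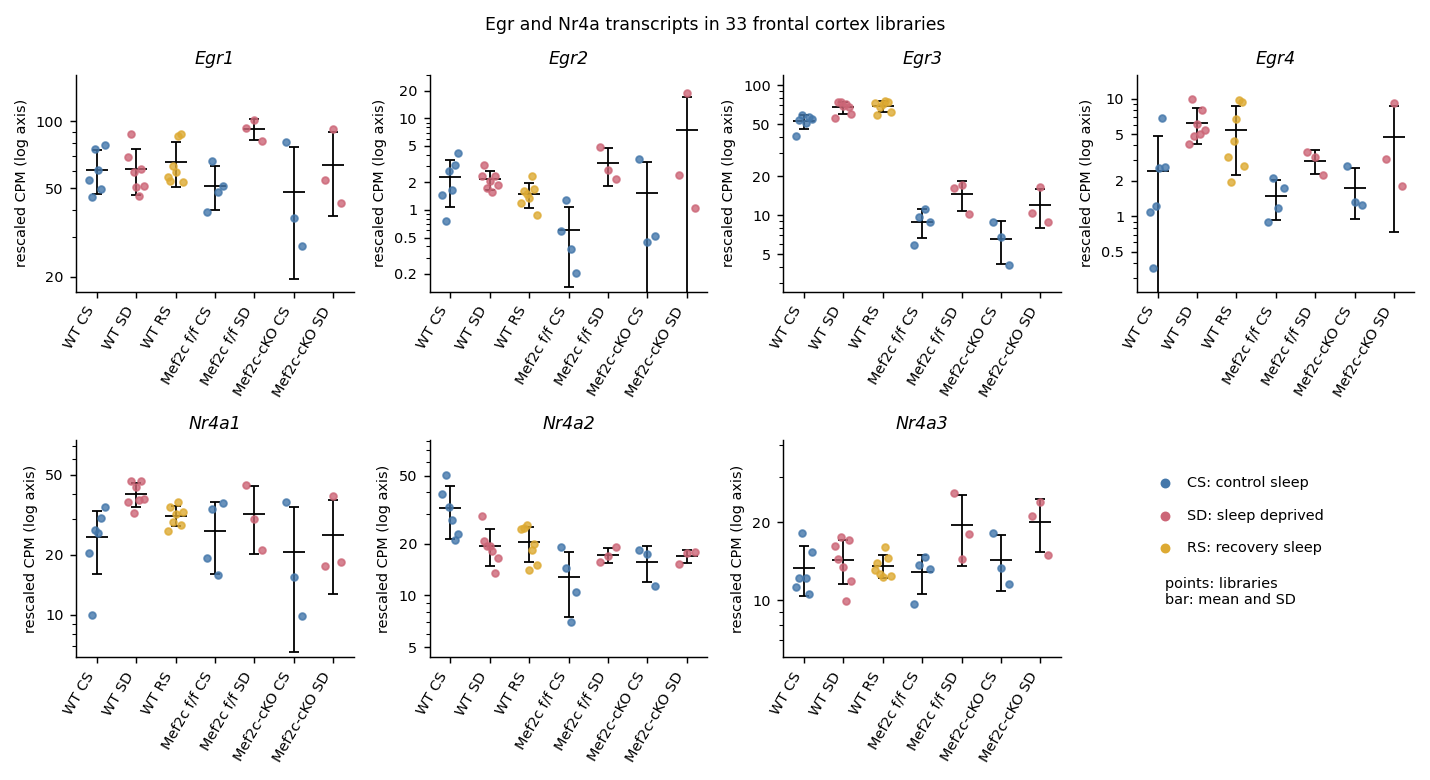
Rescaled CPM (log axis) of each member in every library, by genotype and sleep group (CS control sleep, SD sleep deprived, RS recovery sleep). Points are libraries, bars the mean ± SD, and a bar that would pass below the axis is not drawn to its end. Egr3 is at 40.5 to 75.3 in WT and at 4.13 to 17.2 in the other 2 genotypes, and Egr2 in Mef2c-cKO SD ranges from 1.05 to 18.9.

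The first question was how 6 hr of sleep loss changed the members in WT mice. Egr3, Egr4 and Nr4a1 were higher in SD than in CS, Nr4a2 was lower, and Egr1, Egr2 and Nr4a3 did not pass the test. A gene was called when its Benjamini-Hochberg adjusted p, from limma on log2(rescaled CPM + 0.5) over all genes tested, was at most 0.05 and its absolute log2 fold change at least 0.3. Of the 7 members 4 were called, where 45.1% of the 12913 genes tested were called. In the higher direction 3 of 7 members were called against 24.6% of all genes, and in the lower direction 1 of 7 against 20.5%. The members' median log2 fold change was 0.11, and that of all genes 0.04. With the CPM as deposited, the median over all genes moved to 0.30, and the called genes went from 3182 higher and 2643 lower to 6106 higher and 801 lower, while the same 4 members were called.

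Egr4 was tested only because its SD libraries all reached a CPM of 1, which CS replicates 1 and 2 did not, so a low CS level is built into its entry. Its rescaled CPM were 1.08, 0.366, 1.22, 2.56, 6.84 and 2.61 in CS (mean 2.45 ± 2.32, SD, n = 6) and ranged from 4.14 to 10.01 with a median of 5.37 in SD (mean 6.19 ± 2.08, n = 7). The groups overlapped through 1 CS library, replicate 5, which was above 5 of the 7 SD libraries, while the other CS libraries lay below all of them. The log2 fold change was 1.46 ± 0.38 (SE), a 2.75-fold difference, with an adjusted p of 0.00791 by limma. Leaving that library out gave 1.79 (adjusted p = 0.0012). Egr4 has the most GC-rich transcript of the members (68.2% GC). After a correction of each library for GC content and transcript length its log2 fold change was 0.65 (adjusted p = 0.0249).

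Nr4a1 (Nur77) is induced by activity in cortical neurons and acts on dendritic spines. It was at 9.98 to 34.4 rescaled CPM in CS (median 26.2, mean 24.6 ± 8.59) and 32.1 to 46.8 in SD (median 38.0, mean 40.1 ± 5.57). Of the SD libraries 6 of 7 were above every CS library. The log2 fold change was 0.78 ± 0.22 (adjusted p = 0.0116 by limma), and with the GC content and length correction it was 0.40 (adjusted p = 0.0426). Leaving out CS replicate 2, the library with 9.98, gave 0.55 (adjusted p = 0.00537).

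Egr3, known for its role in muscle spindles and induced in cortical neurons by activity, rose by a smaller amount with a narrow spread. It was at 40.5 to 58.6 rescaled CPM in CS (median 54.6, mean 52.8 ± 6.54) and 55.7 to 73.9 in SD (median 68.7, mean 67.3 ± 6.90), with 6 of 7 SD libraries above every CS library. The log2 fold change was 0.35 ± 0.10, 1.28-fold (adjusted p = 0.0113 by limma). The call rests close to the fold threshold. Without CS replicate 1, the lowest library, it was 0.28 (adjusted p = 0.0235), and with the GC content and length correction 0.29 (adjusted p = 0.0395), both under the 0.3 needed for a call.

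Nr4a2 (Nurr1), known for its role in dopamine neurons and in the cortex for marking the claustrum and deep layers, went the other way. It was at 21.1 to 50.5 rescaled CPM in CS (median 30.2, mean 32.3 ± 11.1) and 13.6 to 29.0 in SD (median 19.3, mean 19.5 ± 4.77), and 6 of 7 SD libraries were below every CS library. The log2 fold change was -0.68 ± 0.20 (adjusted p = 0.0135 by limma), -0.58 (adjusted p = 0.0266) with the GC content and length correction, and -0.41 (adjusted p = 0.0496) with the CPM as deposited. Of 5 other markers of the claustrum and layer 6b tested, Ctgf was called, and it was higher (log2 fold change 0.44, adjusted p = 0.0197), while their median was -0.16. Whether the number of such cells sampled bears on Nr4a2 was not tested.

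Egr1, the best known member, had almost the same mean in both groups. It was at 45.6 to 78.5 rescaled CPM in CS (median 57.5, mean 60.7 ± 13.5) and 46.1 to 88.0 in SD (median 59.4, mean 60.9 ± 14.3). The log2 fold change was 0.00 ± 0.16 (adjusted p = 0.988 by limma). Its sign followed the scaling, at 0.28 with the CPM as deposited and -0.35 with the GC content and length correction, and none of these values passed the test. Egr2, which is best known for myelination in Schwann cells and is also an activity gene in neurons, was at 0.765 to 4.15 in CS and 1.56 to 3.12 in SD, a log2 fold change of 0.03 ± 0.25 (adjusted p = 0.931). Nr4a3 (Nor1), the third orphan receptor, was at 10.5 to 18.2 in CS and 9.94 to 17.6 in SD (log2 fold change 0.11 ± 0.15, adjusted p = 0.55).

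In none of the 7 members were the CS and SD libraries fully apart, whereas this was so for 15.1% of the genes tested. Several features of the CS libraries moved alongside these values. CS replicates 1 and 2 had the highest Nr4a2 (38.9 and 50.5), with Nr4a1 at 20.3 and 9.98 and Egr4 at 1.08 and 0.366, and they also had the highest summed astrocyte markers of the group (944 and 1041, against 478 to 727 in the other 4). Meningeal fibroblast markers (5 genes) summed to 8.81 to 38.7 in CS and 44.4 to 72.1 in SD, with no overlap, and choroid plexus markers to 10.8 to 184 in CS and 6.62 to 11.8 in SD. Striatal neuron markers summed to 213 to 473 in CS and 349 to 712 in SD. Of the 5 tested, 2 (Adora2a and Ppp1r1b) were called higher and 0 lower, with a median log2 fold change of 0.20. The part of these differences in the members' values was not tested, and in bulk tissue fewer cells of a type cannot be told apart from less RNA per cell.

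The other genes of the same pathways were read from lists written with earlier results of these data known. Over all 12913 genes tested in WT CS to SD, 24.6% were called higher and 20.5% lower, with a median log2 fold change of 0.04, and these shares apply to each list here. Of 18 other immediate early genes tested, 15 were called higher and 0 lower, with a median log2 fold change of 0.62. Arc, a synaptic effector, changed by 1.18 ± 0.21 (adjusted p = 0.00137), Junb by 2.12 ± 0.56 (adjusted p = 0.00849) and Npas4 by 0.68 ± 0.15 (adjusted p = 0.00454), while Fos, at 2.01 to 15.3 rescaled CPM in CS and 7.21 to 12.8 in SD, did not pass (0.49 ± 0.35, adjusted p = 0.238). With the GC content and length correction 9 of the 18 were called higher, where 1713 of 12460 genes were called higher and 1000 lower. Of the 5 co-regulators and partners, 4 were called higher. These were Nab2 (0.80 ± 0.23), a repressor that Egr proteins induce and that binds them, and the retinoid receptors Rxra, Rxrb and Rxrg (0.63 to 0.90), which pair with Nr4a1 and Nr4a2. Nab1 was called lower (-0.31 ± 0.11). With the GC content and length correction 1 of the 5 was called. Of 15 upstream factors, 3 were called higher, among them Srf (0.48 ± 0.14, adjusted p = 0.012), and 3 lower, namely Creb1 (-0.39 ± 0.14), Mef2a (-0.67 ± 0.17) and Mef2c (-0.80 ± 0.13, adjusted p = 0.00109). With the GC content and length correction none of the 15 was called higher, Srf included, and 3 were called lower.

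**Figure D3:**
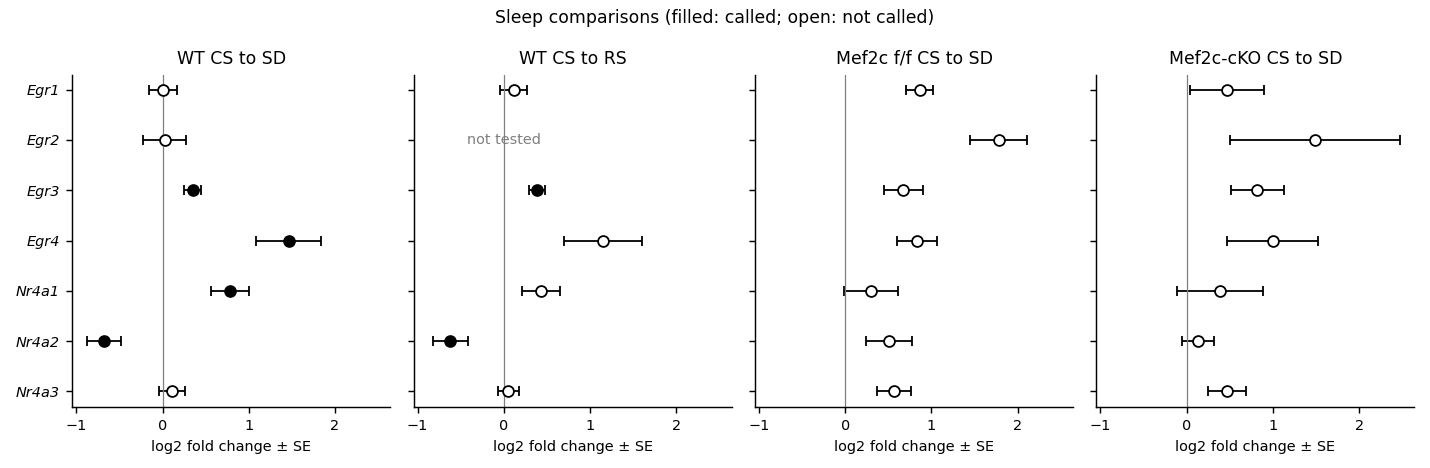
Log2 fold change ± SE of each member (x axis) in 4 sleep comparisons, from limma. Filled points were called and open points were not, and Egr2 was not tested in WT CS to RS. In WT the called members are Egr3, Egr4 and Nr4a1 above 0 and Nr4a2 below it in SD, and in Mef2c f/f and Mef2c-cKO mice all 7 points lie above 0 with none called.

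The RS group was then set against the others. RS mice had a shorter deprivation than SD mice before their 2 hr of sleep. Length of deprivation and recovery therefore cannot be told apart. Between CS and RS, Egr3 was called higher and Nr4a2 lower, 2 of the 6 members tested, where 17.5% of 12752 genes were called. In the higher direction 1 of 6 was called against 9.28% of all genes, and in the lower direction 1 of 6 against 8.22%. Egr2 was not tested, because it did not reach a CPM of 1 in all libraries of either group.

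Egr3 was at 58.8 to 75.3 rescaled CPM in RS (median 70.9, mean 68.8 ± 6.45, n = 7), and every RS library was above the highest CS library (58.6). It was the 1 member whose CS and RS libraries were apart, as was the case for 3.72% of all genes tested. From CS the log2 fold change was 0.38 ± 0.09 (adjusted p = 0.0335 by limma). Nr4a2 was at 14.1 to 25.9 in RS (median 19.9, mean 20.4 ± 4.80), with 4 of 7 libraries below every CS library, and its log2 fold change was -0.62 ± 0.20 (adjusted p = 0.0481). Both calls sit near the threshold. Leaving out any of 8 of the 13 libraries (CS replicates 1, 2 and 3, and RS replicates 3, 4, 5, 6 and 12) ended both of them, with adjusted p of up to 0.0749 for Egr3 and 0.0939 for Nr4a2. With the GC content and length correction they were 0.0507 and 0.0805.

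Egr4 ranged from 1.95 to 9.66 rescaled CPM in RS (median 4.36), so that its libraries reached from within the CS range to near the top of the SD range, and its log2 fold change of 1.15 ± 0.46 from CS did not pass (adjusted p = 0.071). It was tested only because its RS libraries all reached a CPM of 1, so here too a low CS level is built into its entry. Egr4 was called in a fit over all WT groups (adjusted p = 0.0326), without CS replicate 5 (1.48, adjusted p = 0.0374) and without RS replicate 2 (1.33, adjusted p = 0.0478). Nr4a1 was at 26.3 to 36.7 in RS (log2 fold change 0.43 ± 0.22, adjusted p = 0.133), Egr1 at 53.6 to 87.9 (0.11 ± 0.16, adjusted p = 0.573) and Nr4a3 at 12.3 to 16.0 (0.05 ± 0.12, adjusted p = 0.751). Of the other immediate early genes, 6 of 18 were called higher and 1 lower (Klf10, -0.42 ± 0.13), against 9.28% and 8.22% of all genes.

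Set directly against SD, no member was called in RS by limma, edgeR or DESeq2, where 0.0232% of 12921 genes were called by limma. At an unadjusted p of at most 0.05, which 683 of the 12921 genes passed in either direction, 2 members were lower in RS. Nr4a1 was at 40.1 ± 5.57 rescaled CPM in SD and 31.3 ± 3.67 in RS (log2 fold change -0.35 ± 0.10, adjusted p = 0.345 by limma) and Egr2 at 2.16 ± 0.520 and 1.5001 ± 0.453 (-0.42 ± 0.15, adjusted p = 0.653). Egr2 was tested here only through SD, since not all RS libraries reached a CPM of 1. Its lower level in RS is thus in part built into its entry. Egr3 and Nr4a2 differed between SD and RS by 0.03 ± 0.08 and 0.06 ± 0.16. In no member were the SD and RS libraries apart, against 0.163% of all genes.

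In Mef2c f/f mice all 7 members had a higher mean in SD, with log2 fold changes of 0.30 to 1.78 and a median of 0.67 (all genes -0.00). None was called by limma, with 4 CS and 3 SD libraries, where 0.0403% of 12410 genes were called. At an unadjusted p of at most 0.05 there were 5, where 2111 of the 12410 genes passed it. By edgeR none was called, and by DESeq2 Egr1, Egr2 and Egr4 were.

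Egr1 was at 39.0, 66.6, 48.1 and 51.2 rescaled CPM in CS and 93.5, 102 and 82.0 in SD, with no overlap. This gave a log2 fold change of 0.87 ± 0.16 (1.82-fold, adjusted p = 0.0765 by limma). Egr2 was at 0.593, 1.27, 0.375 and 0.205 in CS and 4.89, 2.71 and 2.17 in SD, also with no overlap (1.78 ± 0.33, adjusted p = 0.0805). Egr2 and Egr4 were tested here only through SD, since not all CS libraries reached a CPM of 1 (Egr2 had 4 to 45 reads in CS), so their fold changes and lack of overlap are in part built into their entry. Egr1 and Egr2 were called without CS replicate 1 (adjusted p = 0.036 and 0.0396) and with the GC content and length correction (adjusted p = 0.0166 and 0.0402). Egr4 was at 0.890, 2.12, 1.17 and 1.74 in CS and 3.49, 3.20 and 2.23 in SD (0.83 ± 0.24, adjusted p = 0.153). It was the last of 3 members whose groups were apart, as were those of 17.4% of all genes in this comparison.

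Egr3 (0.67 ± 0.23, adjusted p = 0.195), Nr4a3 (0.56 ± 0.20, adjusted p = 0.206), Nr4a2 (0.50 ± 0.27, adjusted p = 0.359) and Nr4a1 (0.30 ± 0.31, adjusted p = 0.642) had overlapping groups. Oligodendrocyte markers (5 genes) also moved with these groups, summing to 1392 to 1680 rescaled CPM in CS and 1869 to 2174 in SD with no overlap, with an unadjusted p of 0.05 or less for 4 of the 5 and none called (median log2 fold change 0.31). Excitatory neuron markers summed to 1689 to 2090 and 1968 to 2102, and astrocyte markers to 544 to 594 and 594 to 645, and their part in the members' values was not tested. Nr4a1 was at 15.7 to 36.3 in CS, a spread as wide as the step to SD (21.1 to 44.7). Of the 18 other immediate early genes tested none was called by limma, 9 had an unadjusted p of at most 0.05, and their median was 0.39. None of the co-regulators or upstream factors was called either. Arc was at 1.27 ± 0.40 (adjusted p = 0.178) and Fos at 1.29 ± 0.29 (adjusted p = 0.103).

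The change from CS to SD was then compared between Mef2c f/f and WT mice in 1 model. It was higher in Mef2c f/f for Egr2 (difference of log2 fold changes 1.75 ± 0.45, adjusted p = 0.0244 by limma), Nr4a2 (1.18 ± 0.36, adjusted p = 0.0393) and Egr1 (0.86 ± 0.26, adjusted p = 0.0383), 3 of 7 members, where 15.1% of 13106 genes were called. Egr2 again entered through SD libraries, where it is high, and with no filter it was the 1 member still called (adjusted p = 0.0426). For Nr4a2 the fold change was -0.68 in WT and 0.50 in Mef2c f/f. The differences for Egr3 (0.32 ± 0.23), Nr4a3 (0.45 ± 0.27), Nr4a1 (-0.48 ± 0.41) and Egr4 (-0.63 ± 0.58) did not pass (adjusted p from 0.201 to 0.402). Among the other listed pathway genes, Creb1, Crem and Mef2c were called higher, and Rxra and Npas4 lower, and with the GC content and length correction none of the listed pathway genes was called. The members' calls are fragile. Leaving out any of 11 of the 20 libraries ended that of Egr1, any of 11 that of Nr4a2, and any of 3 (Mef2c f/f CS replicate 4 and SD replicates 1 and 3) that of Egr2. WT and Mef2c f/f libraries also differ in the share of reads listed, and genotype and that difference cannot be told apart.

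In Mef2c-cKO mice all 7 members again had higher means in SD, with log2 fold changes of 0.13 (Nr4a2) to 1.49 (Egr2, tested only through SD), and none was called by limma, edgeR or DESeq2 with 3 libraries against 3, where 0.0234% of 12810 genes were called by limma. At an unadjusted p of at most 0.05, which 391 of the 12810 genes passed, there was 1 member, Egr3. Its rescaled CPM were 8.92, 6.76 and 4.13 in CS and 10.4, 16.5 and 8.93 in SD (0.82 ± 0.31, adjusted p = 0.998). The groups touched but did not overlap, which also held for 9.05% of all genes.

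None of the 19 other immediate early genes tested, the 5 co-regulators and partners or the 15 upstream factors was called by limma. The spread in this genotype came with single libraries. CS replicate 5 had the highest value of its group in all 7 members, and SD replicate 6 in 6 of 7. Egr2 was at 3.59, 0.448 and 0.516 in CS and at 2.42, 18.9 and 1.05 in SD, where the 18.9 of replicate 6 was the highest value of Egr2 in any library. In the same library Egr1 was at 92.5 (54.7 and 42.9 in the other SD libraries), Egr4 at 9.26 (3.06 and 1.82) and Nr4a1 at 39.4 (17.6 and 18.3). The mean of 13 other immediate early genes in that library was 0.56 above their group means on the log2 scale. CS replicate 5 was the library with choroid plexus markers at 310. That library and SD replicate 6 each had the highest summed striatal and inhibitory neuron markers and the lowest excitatory neuron markers of their groups. Inhibitory neuron markers summed to 758 in CS replicate 5, against at most 643 in the other CS libraries. In SD replicate 6 they summed to 823, against at most 711. Astrocyte markers were lowest of the group in CS replicate 5 but highest in SD replicate 6. The part of these differences in the members' values was not tested. Without SD replicate 6 the log2 fold changes were 0.16 for Egr1, 0.43 for Egr2 and 0.01 for Nr4a1, and without CS replicate 5 they were 0.92, 2.18 and 0.89.

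Mef2c-cKO mice were then compared with Mef2c f/f mice within each sleep state. No group carried Cre without the floxed alleles, so Cre and the deletion cannot be told apart. In CS none of the 6 members tested was called by limma, edgeR or DESeq2, where 7.67% of 12681 genes were called by limma. None reached an unadjusted p of 0.05 either, which 3557 of these genes did. The log2 differences went from -0.46 ± 0.43 (Nr4a1) to 0.35 ± 0.31 (Nr4a2), and the groups overlapped for all members. Egr2 did not reach a CPM of 1 in all libraries of either group. In SD none of 7 was called by limma, edgeR or DESeq2, where 15.1% of 12774 genes were called by limma. An unadjusted p of at most 0.05 was reached by 4357 of these genes and by 1 member. This was Egr1, at 93.5, 102 and 82.0 rescaled CPM in Mef2c f/f and 54.7, 92.5 and 42.9 in Mef2c-cKO (-0.61 ± 0.24, adjusted p = 0.113). Of the listed pathway genes, Atf1, a relative of CREB, was called lower in both sleep states, and Rxrg higher in SD. The SD comparison turned on 1 library. Without Mef2c-cKO SD replicate 6, Egr1 was called lower (-0.92, adjusted p = 0.000356) and so was Nr4a1 (-0.75, adjusted p = 0.0354), and the value of Egr2 went from 0.31 to -0.76 (adjusted p = 0.0993). For the difference in the change from CS to SD between Mef2c-cKO and Mef2c f/f, no member was called by limma, edgeR or DESeq2 (0 of 7, and 0 at an unadjusted p of 0.05, where 0.00778% of 12860 genes were called by limma and 1005 reached that unadjusted p). The differences went from -0.40 ± 0.47 for Egr1 to 0.16 ± 0.59 for Egr4, and the SE of 0.32 to 1.06 limit the differences that could have been detected.

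Across the 7 groups the members took different orders. Egr1 was highest in Mef2c f/f SD (92.4 ± 9.90 rescaled CPM, n = 3), apart from the next group (WT RS, 65.6 ± 14.8) by more than the SD of both. Neighbours among the other 6 groups overlapped within their SD, down to 48.3 ± 28.8 in Mef2c-cKO CS. For Egr2 (7.44 ± 9.91 in Mef2c-cKO SD to 0.611 ± 0.469 in Mef2c f/f CS), Egr4 (6.19 ± 2.08 in WT SD to 1.48 ± 0.553 in Mef2c f/f CS), Nr4a1 (40.1 ± 5.57 in WT SD to 20.6 ± 14.1 in Mef2c-cKO CS), Nr4a2 (32.3 ± 11.1 in WT CS to 12.7 ± 5.19 in Mef2c f/f CS) and Nr4a3 (20.03 ± 4.61 in Mef2c-cKO SD to 12.8 ± 2.19 in Mef2c f/f CS), no neighbouring groups were apart.

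Egr3 was set apart by the level itself. Its mean was 68.8 in WT RS, 67.3 in WT SD and 52.8 in WT CS, followed by 14.5 ± 3.80 in Mef2c f/f SD, 11.95 ± 4.03 in Mef2c-cKO SD, 8.91 ± 2.25 in Mef2c f/f CS and 6.60 ± 2.40 in Mef2c-cKO CS, and the lowest WT library (40.5) was above the highest of the others (17.2). Between the CS groups the WT mean was 5.93-fold that of Mef2c f/f, and of the 11570 genes used for scaling 6, Egr3 among them, had a log2 difference at least as low (-2.53, against a median of 0.01). Nr4a2 was also lower in Mef2c f/f CS than in WT CS, by 1.33 on the log2 scale, a difference that 40 genes equalled or passed. Egr1, Nr4a1 and Nr4a3 differed by -0.24, 0.10 and -0.04. GENCODE lists protein-coding Egr3 transcripts of 1509 and 3940 bases, and the annotation release on which reads were counted is not given in the sources used here. Whether the 2 sets of libraries were counted on the same Egr3 model was not tested, and no test was made across the sets other than of the change from CS to SD.

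Within groups, 6 of the 7 members varied together over all 33 libraries, on median more weakly in WT than in the other genotypes. Log2 values were centred on their group means in all 33 libraries, and Pearson's r was then positive in all 15 pairs that leave out Nr4a2, from 0.23 (Egr4 and Nr4a3) to 0.78 (Egr1 and Egr2) with a median of 0.58 (Spearman's rho 0.29 to 0.74). The median of these pairs was 0.45 over the 20 WT libraries, where r went from 0.01 (Egr4 and Nr4a3) to 0.82 (Egr2 and Nr4a1). It was 0.74 over the other 13 (0.63 to 0.90), and 0.54 without Mef2c-cKO SD replicate 6. The 6 pairs with Nr4a2 had r from -0.43 (with Egr4) to 0.07 (with Egr1). Their median was -0.34 over the WT libraries and 0.13 over the other 13, where the highest was 0.31 with Nr4a1. These are descriptions over libraries that also share depth, tissue composition and the GC trend.

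Their spread within groups was large. The pooled SD of log2 values was 0.76 for Egr2, 0.73 for Egr4 and 0.50 for Nr4a1, against a median of 0.20 over 11570 genes, so that 99.9%, 99.8% and 98.5% of genes varied less. Egr1 and Nr4a2 were at 0.39 and Egr3 and Nr4a3 at 0.29 and 0.28. Among 11565 other genes, those most like each member within groups were in part other early genes. Egr2 was closest to Dusp6 (r = 0.90), a phosphatase that ends ERK signalling, Fos (0.90) and Trib2 (0.88). Nr4a1 was closest to Dusp5 (0.88), Arc (0.84) and Per1 (0.83), Egr4 to Pcdh8 (0.90), Thap11 (0.88) and Prr7 (0.87), and Egr1 to Dph3 (0.75), Srpk1 (0.74) and Yrdc (0.73). Egr3 was closest to Ercc8 (0.75), Pdpk1 (0.69) and Shroom2 (0.68), Nr4a2 to Mak16 (0.83), Smim10l1 (0.83) and Fam81a (0.82), and Nr4a3 to Metrnl (0.62), Ets2 (0.60) and Zdhhc22 (0.59).

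**Figure D4:**
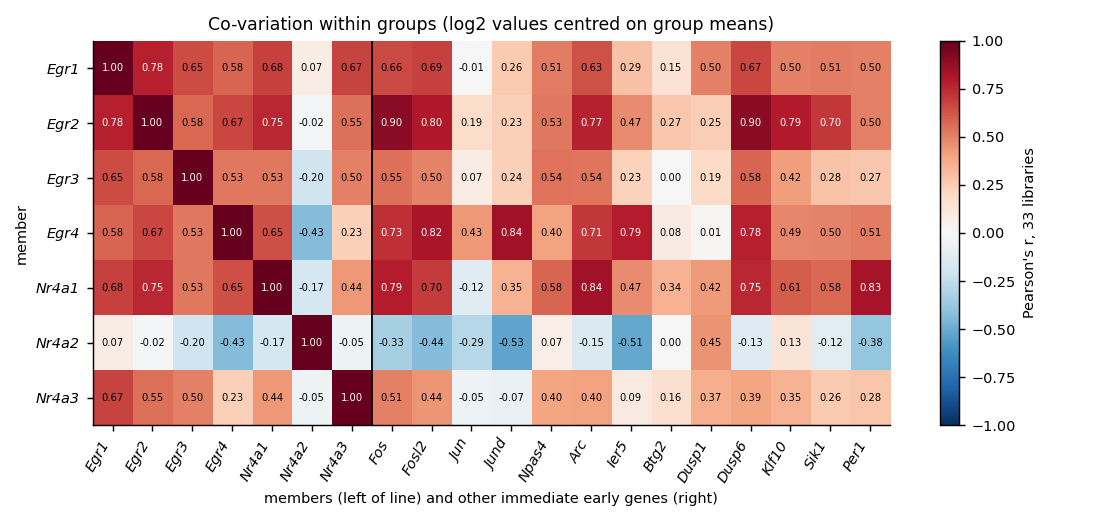
Pearson's r between each member (rows) and the members and 13 other immediate early genes (columns), over log2 values of 33 libraries centred on their group means, with red above 0 and blue below. Egr2 and Fos reach 0.90, while the Nr4a2 row runs from -0.53 with Jund to 0.45 with Dusp1.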

How the data were processed

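Frontal cortex RNA was made into stranded polyadenylated libraries. The authors used Trimmomatic for trimming, STAR (mm10) for alignment and HTSeq for counting unique reads, and deposited edgeR CPM of 21565 genes in 33 libraries. Whole reads were recovered from each library's smallest CPM step (100% of 711645 values within 0.01 of a whole number), giving totals of 18935045 to 249046089. The annotation release is not given in the sources used here.

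Each library was divided by a median-of-ratios factor over 11570 genes and tested as log2(rescaled CPM + 0.5) with limma 3.58.1 (R 4.3.3), keeping those that reached a CPM of 1 in all libraries of a compared group, each fit holding the compared groups alone. For a call the p, adjusted after Benjamini and Hochberg, had to be 0.05 or less with a log2 fold change of 0.3 or more in size, and for interactions the adjusted p alone. The procedure was tested on simulated data. Alternatives were a pseudocount of 0.1, deposited CPM, no filter, a CPM of at least 5 throughout, a GC content and length correction (splines with 5 and 4 degrees of freedom), edgeR 4.0.16 and DESeq2 1.42.0 on recovered reads, a fit over all groups, blocking on the replicate number, and leaving out single libraries. The fit over all groups held all WT groups for WT comparisons, and all Mef2c f/f and Mef2c-cKO groups for theirs. For the interaction with WT it held every group. Named genes were the 7 members, the fixed pathway and marker lists, and the 3 genes most like each member. The members and lists were chosen with earlier results of these data known. Positions and transcript lengths are from GENCODE M21, and GC content and length were matched for 19497 genes. Replicates of a group differed by more than sampling noise in all 72 pairs.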

Additional observations from a re-analysis of the deposited data

Results flagged for a closer look

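Egr4 in WT CS replicate 5, at 6.84 rescaled CPM against 0.366 to 2.61 in the other 5 libraries, stood far from its group by Dixon's test, the 1 case in 28 combinations of member and group with 4 to 7 libraries. Chance flags about 1 in 20 such groups. The change from CS to SD differed between Mef2c f/f and WT mice, by the interaction term in limma, for Egr1 (0.86, adjusted p = 0.0383), Egr2 (1.75, adjusted p = 0.0244) and Nr4a2 (1.18, adjusted p = 0.0393).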

How the results depend on the processing

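Of the 517 member values recomputed under the alternatives, apart from libraries left out, 491 kept their side of the threshold and none reversed while called, though 20 that were called under neither setting changed sign. The number of members called was 4 in WT CS to SD and 0 with the replicate block, where the log2 fold changes were 0.40 for Egr3, 1.74 for Egr4, 0.83 for Nr4a1 and -0.65 for Nr4a2 (adjusted p from 0.0511 to 0.0675). In WT CS to RS it was 2 and became 1 with CPM as deposited, 1 with no filter and 0 with the GC content and length correction, and 3 with a fit over all groups or the block, which added Egr4 (block 1.27, adjusted p = 0.00115). In Mef2c f/f CS to SD it was 0 and became 2 with that correction and 3 with DESeq2. In the interaction of Mef2c f/f and WT it was 3 and became 1 with CPM as deposited, with no filter or with a fit over all groups, and 0 with the replicate block. With 1 library left out it went from 3 to 4 in WT CS to SD, 0 to 3 in WT CS to RS, 0 to 2 in Mef2c f/f CS to SD, 0 to 2 for Mef2c-cKO against Mef2c f/f in SD and 0 to 3 in the interaction with WT. Same-numbered libraries did not deviate together in every pair (r across genes -0.33 to 0.55 in WT CS and SD, with 2 of 5 pairs over 0.1, and 0.07 to 0.67 in WT CS and RS, with 5 of 6). In these, 4 of 10 and 4 of 12 libraries correlated best with their own number. For WT SD and RS it was 1 of 10 and for Mef2c f/f 2 of 6. In Mef2c-cKO it was 4 of 4, over 2 pairs with r of 0.07 and 0.15. As this differed between comparisons, the numbers were not read as pairs. In Mef2c-cKO CS to SD the alternatives took the log2 fold change down to -0.17 for Egr1, -0.40 for Nr4a1 and -0.11 for Nr4a2, none of them called. No block could be fitted for Mef2c-cKO against Mef2c f/f, which share no number. Mean levels as deposited lay beyond 1 SD for Egr3 in WT CS (45.3) and Nr4a2 in Mef2c-cKO SD (18.6). Counts over all genes moved by more than 1.5 times in WT CS to SD (5825, and 2713 with the GC content and length correction and 287 with the block), in WT CS to RS (2232, and 385 with no filter, 512 with that correction, 3420 with DESeq2, 4017 over all groups and 4279 with the block), for Mef2c-cKO against Mef2c f/f in CS (973, and 2095 with DESeq2 and 2167 over all groups) and in SD (1927, and 1280 with a CPM of at least 5 and 1019 over all groups), and in the interaction with WT (1983, and 3426 as deposited, 1142 with no filter, 209 with the correction, 3019 over all groups and 0 with the block). In the comparisons with 1 to 5 genes called they went from 0 to 54 in WT SD to RS, 0 to 467 in Mef2c f/f, 1 to 25 in Mef2c-cKO and 1 to 59 for the difference between those genotypes. The cause of these shifts was not tested. Depth limits Egr2 most, at 4 reads in 1 Mef2c f/f CS library.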
